A study of Mus musculus with 9 samples.

Results

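The RNAs described here are the annotated noncoding RNAs on the array: transcripts whose RefSeq accession starts with NR_, the prefix that RefSeq gives to curated transcripts without a coding frame. An accession was kept where 3 or more of the 9 arrays had a probe for it well above background, and its brightest probe stood for it. This left 462 of the 1078 NR_ accessions on the array, among 19619 accessions of all kinds that passed the same filter. RefSeq's current gene table gave a symbol to 423 of them and sorted them into 303 long noncoding RNAs, 99 transcribed pseudogenes, 9 small structural RNAs and 12 genes that are now listed as protein-coding. The other 39 have no current symbol in that table. Of the 1078 accessions, 339 were above background on all 9 arrays and 476 on none. At the edge of the filter, the 27 accessions above background on 3 arrays had a median level of -5.44 and the 34 on 2 arrays a median of -6.22. Of the 462, 2 were above background in naive arrays alone, 5 in Th17 arrays alone and 0 in Th1 arrays alone. Such RNAs passed the filter only through the group where they are high, so the filter partly builds in their difference.

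The cells were CD4+ T cells from spleen and lymph node of BALB/c mice, enriched on magnetic beads. All received PMA, a phorbol ester, at 10 ng/ml together with ionomycin, a calcium ionophore, at 500 ng/ml during 3 h ex vivo, and were then stained for secreted cytokines and sorted. Naive cells were CD3+CD4+ and CD45RB high. Th1 cells were CD45RB low, positive for interferon gamma and negative for IL-17A, and Th17 cells were CD45RB low with the opposite cytokine pattern. There were 3 arrays for each group, hybridised with Cy3-labelled RNA from 0.5 µg per sample. The labels name different RNA extraction kits without saying which sample had which. Naive cells were therefore stimulated cells as well, and the comparisons ask how sorted, cytokine-secreting effector populations differ from them and from each other. Animals and sorts are not given for the replicates, so a p-value covers the spread among these samples alone, and that spread may be technical. Levels are log2 signal minus each array's 75th percentile, which is thus at level 0. A difference of 1 is a doubling. Called means a two-sided adjusted p under 0.05 in limma over all accessions tested. Levels of different probes are not comparable with each other.

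Noncoding RNAs act in several ways. Host genes of small nucleolar RNAs (snoRNAs) carry the guides of ribosomal RNA modification in their introns, and their spliced transcripts are often degraded during translation. Nuclear RNAs such as Neat1 and Malat1 build or associate with paraspeckles and splicing speckles. Imprinted and X-linked RNAs such as Kcnq1ot1 and Xist silence genes in cis, and host transcripts such as Mirg give rise to microRNAs, which bind target mRNAs mainly through the seed near their 5′ end.

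The sequences behind these groups follow where the results turn on them. Mirg and its neighbour Meg3, both higher in Th1 than in Th17 cells below, lie in the imprinted Dlk1-Meg3 domain, and in RefSeq's table for build GRCm38.p6 10 microRNA hairpins with 19 mature microRNAs lie within Mirg and 1 hairpin lies within Meg3. All of those shown lie on the plus strand of chromosome 12, except that Mir22hg, called higher in Th1 and Th17 cells, holds the miR-22 hairpin on chromosome 11 (plus strand) and Dleu2, also called higher in both, holds miR-16-5p on chromosome 14 (minus strand). The seed, bases 2 to 8, is in capitals, and the first pair shares its seed, GGUUGCC. The array did not measure mature microRNAs.
mmu-miR-453 (Mirg, chr12:109735669-109735692): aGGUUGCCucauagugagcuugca
mmu-miR-496a-5p (Mirg, chr12:109739132-109739152): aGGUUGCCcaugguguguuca
mmu-miR-154-5p (Mirg, chr12:109738438-109738459): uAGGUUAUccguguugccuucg
mmu-miR-369-3p (Mirg, chr12:109743466-109743486): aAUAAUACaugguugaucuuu
mmu-miR-409-3p (Mirg, chr12:109743204-109743225): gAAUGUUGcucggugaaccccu
mmu-miR-410-3p (Mirg, chr12:109743764-109743784): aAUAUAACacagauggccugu
mmu-miR-770-5p (Meg3, chr12:109563710-109563731): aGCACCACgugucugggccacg
mmu-miR-22-3p (Mir22hg, chr11:75463772-75463793): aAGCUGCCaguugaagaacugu
mmu-miR-16-5p (Dleu2, chr14:61631936-61631957): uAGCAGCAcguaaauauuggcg

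Before the results, the arrays themselves: 53.4% to 58.3% of probes were well above background on each, and the genes of the sort gates, Ifng and Il17a, were highest in the groups sorted for them. Naive replicate 1 read -0.24 for Il17a, above the other naive arrays at -4.68 and -4.16. All 5 T cell markers (Cd3e, Cd3d, Cd3g, Cd4, Lck) were above background on all 9 arrays. Of 5 B cell markers, 4 were above background on no array, and of 3 NK cell markers, 2. Of the 5 monocyte and macrophage markers, 3 were above background on all arrays. The summed level of the list was 4.09 to 4.12 in naive, 4.69 to 5.0 in Th1 and 4.33 to 4.94 in Th17 arrays. Its brightest member, Itgam, read 3.63 to 3.69 in naive, 4.55 to 4.83 in Th1 and 4.09 to 4.79 in Th17 arrays. Csf1r went the other way, at 2.09 to 2.20 in naive, 1.19 to 1.74 in Th1 and 1.27 to 1.45 in Th17 arrays. Adgre1 lay between -5.24 and -4.27 throughout. Cd14 lay between -1.70 and -0.30 in Th17 arrays and at -3.06 or below in the others. Lyz2 was above background on 2 arrays, both Th17. Of the 4 dendritic cell markers, Flt3 was above background on no array and Itgax on 1. The summed level ran from 7.34 to 7.40 in naive, 7.47 to 7.66 in Th1 and 7.49 to 7.75 in Th17 arrays. That sum is nearly all Siglech, which alone read 7.34 to 7.75, whereas Zbtb46 lay between -4.25 and -3.07. Cd8b1 lay between -0.82 and -0.56 in naive and near -4 in the other arrays, while Cd8a was above background on none. The measured erythroid marker sum ran from -4.63 to -3.26 in naive, -4.65 to 0.37 in Th1 and -0.21 to 1.45 in Th17 arrays. The part of such cells in the results was not tested. The 3 naive arrays and Th1 replicate 1 share slide 1, Th1 replicates 2 and 3 and Th17 replicates 1 and 2 share slide 2, and Th17 replicate 3 is alone on slide 3. Scan groups coincide with slides. With the slide as a block, 120 noncoding RNAs instead of 220 were called between Th17 and naive cells, which no slide holds together. Within slide 1, 139 instead of 227 were called between Th1 and naive cells, and within slide 2, 26 instead of 55 between Th17 and Th1 cells. Those fits have fewer arrays or fewer residual degrees of freedom.

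In Th1 against naive cells, 125 noncoding RNAs were higher and 102 lower (227 of 462; limma, adjusted p under 0.05). Of all accessions tested, 53.9% were called, 23.6% higher and 30.3% lower, beside 49.1% of the noncoding RNAs. Their median change was -0.02, beside -0.09 over all accessions. When arrays were scaled to the probes detected on every one of them, the median over all accessions went from -0.09 to 0.06, with 146 higher and 79 lower, and normexp background correction without a few spots of high local background gave 82 higher and 106 lower, so the balance of directions depends on the processing. In Th17 against naive cells, 109 were higher and 111 lower, beside 54.2% of all accessions called (24.3% higher and 29.9% lower). Between Th17 and Th1 cells, 26 were higher and 29 lower in Th17, beside 15.8% of all accessions (8.03% higher and 7.74% lower); without Th1 replicate 2 or Th1 replicate 3 the total of 55 came to 34 and 35. The arrays of the groups did not overlap for 278 of the noncoding RNAs in Th1 against naive cells, beside 65.4% of all accessions (28.2% higher and 37.1% lower). This was so for 258 in Th17 against naive cells, beside 63.5% (28.3% and 35.2%), and for 144 in Th17 against Th1 cells, beside 35.3% (18.2% and 17.1%). Long noncoding RNAs were split 93 higher to 59 lower in Th1 against naive cells and 14 to 24 in Th17 against Th1 cells. Transcribed pseudogenes were split 21 to 31 and 6 to 2 in the same comparisons. The calls of at least 2-fold numbered 68 higher and 30 lower in Th1 against naive cells, beside 11.7% and 9.09% of all accessions. They numbered 56 and 42 in Th17 against naive cells, beside 11.9% and 10.5%, and 12 and 11 in Th17 against Th1 cells, beside 3.04% and 3.39%. Both comparisons with naive cells share the naive arrays, so their values are given side by side only.

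**Figure D1:**
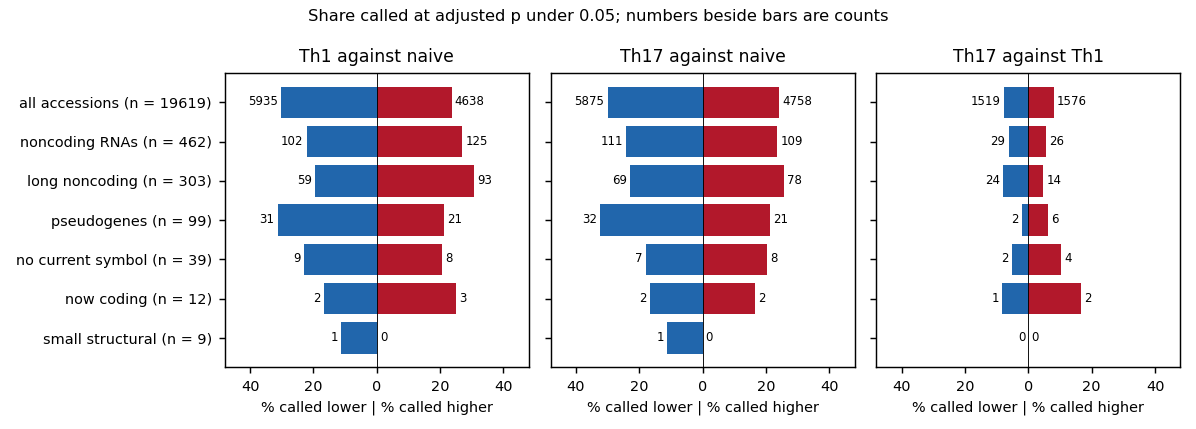
Share of accessions called lower (left of 0) and higher (right of 0) in each comparison, in percent of each class, with the counts beside the bars. All accessions tested stand at the top. Long noncoding RNAs show 93 higher and 59 lower in Th1 against naive cells, and the 9 small structural RNAs show at most 1 call.

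The host genes of snoRNAs were lower in the effector cells than in naive cells. Of 22 names on the list, 11 were measured. In Th1 against naive cells 8 fell, with a median of -0.76 over the list, and in Th17 against naive cells 10 fell, with a median of -1.14. The highest value in either comparison was 0.01, for Snhg10 in Th1 cells. Over all accessions, 30.3% and 29.9% were called lower in those comparisons, with medians of -0.09. The steepest fall was that of 2410006H16Rik, a snoRNA host and lncRNA: its naive levels were 4.95, 5.09 and 5.13, its Th1 levels 3.66, 3.67 and 3.65, and its Th17 levels 3.35, 3.75 and 2.82. The naive arrays did not overlap the others, and the differences were -1.40 ± 0.21 (SE, n = 3 per group; adjusted p = 0.00067, limma) in Th1 and -1.75 ± 0.21 (adjusted p = 0.00019, limma) in Th17 cells.

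Snhg1, whose introns hold a cluster of U-numbered snoRNAs, read 3.39, 3.31 and 3.51 in naive, 2.05, 2.16 and 2.16 in Th1 and 2.11, 2.24 and 1.42 in Th17 arrays. It fell by 1.28 in Th1 and by 1.48 in Th17 cells. Snhg12 fell by 1.27 and 1.56, Snhg5 by 1.22 and 1.26, and Snhg6 by 0.76 and 1.06. Naive and effector arrays did not overlap for any of these 4 genes. Snhg17 fell by 0.75 and 1.12. Dancr, a host also known for a role in keeping progenitor cells undifferentiated, fell by 0.72 in Th1 and by 1.14 in Th17 cells, and Snhg7 by 0.60 and 0.75. The Th1 calls of Dancr and Snhg7 were each lost when any 1 of 5 arrays was left out, with adjusted p of 0.071 to 0.11 and 0.051 to 0.081 (limma). Within slide 1 neither passed, at -0.65 and -0.63, and with the slide as a block neither was called in Th17 cells (adjusted p = 0.071 and 0.13, limma). Without Th1 replicate 2 the list had 5 genes called lower in Th1 cells.

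The remaining 3 hosts differed in part. Snhg16 differed by -0.78 in Th1 cells (adjusted p = 0.055, limma) and fell by 1.16 in Th17 cells (adjusted p = 0.011). The difference between Th17 and Th1 was not called (-0.38, adjusted p = 0.43), and its second probe was called in neither comparison with naive cells. Snhg3 passed in neither comparison, at -0.50 and -0.57. Snhg10 differed by 0.01 ± 0.11 (SE) in Th1 cells and fell by 0.45 in Th17 cells, and it was the 1 host called between Th17 and Th1 cells (-0.47, adjusted p = 0.020, limma), a call lost without Th1 replicate 2 or 3 (adjusted p = 0.059 to 0.076). With the slide as a block neither call of Snhg10 was kept (adjusted p = 0.070 against naive and 0.054 against Th1 cells, limma). Th17 replicate 3 was the lowest Th17 array for all 11 hosts. Without it, 10 of 11 were still called lower in Th17 than in naive cells, with a median of -0.86. The median of the hosts between Th17 and Th1 cells then went from -0.29 to 0.01, so the deeper fall in Th17 cells rests on that array. Of 8 core proteins of snoRNA particles, 4 fell in Th1 cells, and in Th17 cells 4 fell and 1 rose, beside 53.9% and 54.2% of all accessions called in either direction. Nop56, of the box C/D particle, fell by 0.74 and 0.92, and Nop10, of the box H/ACA particle, by 0.69 and 0.55.

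**Figure D2:**
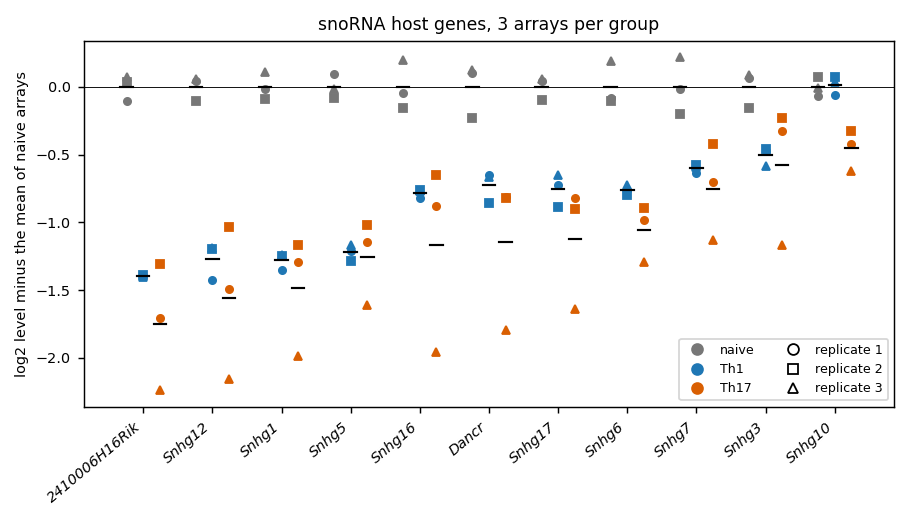
Level of 11 snoRNA host genes on each array minus the gene's mean over naive arrays (log2; points, 3 arrays per group; bars, group means), ordered by the change in Th17 cells. Th1 arrays lie together below the naive arrays for every gene but Snhg10, and the triangle of Th17 replicate 3 is the lowest Th17 point throughout.

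Transcripts of many such hosts and of ribosomal protein genes start at a C followed by a run of pyrimidines, a 5′ terminal oligopyrimidine start that links their translation to growth signals. In the RefSeq promoter table a run of at least 5 C or T starting with C within 4 bases of the annotated start was found for 2410006H16Rik, Snhg12, Snhg3 and Snhg7 and not for Dancr, Snhg1, Snhg10, Snhg16, Snhg17 and Snhg5. Snhg6 has no entry in it. Of all 32851 start sites in the table, 14.1% hold such a run. The run is in capitals below within 50 bases around the start, for the 4 hosts with a run and for Snhg1 and Snhg5, which fell and have none.
2410006H16Rik (chr11:62602852-62602901, plus strand): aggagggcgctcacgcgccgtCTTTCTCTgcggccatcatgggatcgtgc
Snhg12 (chr4:132308653-132308702, plus strand): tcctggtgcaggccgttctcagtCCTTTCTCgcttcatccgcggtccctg
Snhg7 (chr2:26640220-26640269, minus strand): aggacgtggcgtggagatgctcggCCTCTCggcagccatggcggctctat
Snhg3 (chr4:132353662-132353711, minus strand): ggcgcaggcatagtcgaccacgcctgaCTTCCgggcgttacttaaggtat
Snhg1 (chr19:8723462-8723511, plus strand): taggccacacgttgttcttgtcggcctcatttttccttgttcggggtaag
Snhg5 (chr9:88522873-88522922, minus strand): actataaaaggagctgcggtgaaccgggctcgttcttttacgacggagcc
Coordinates and letters are those of build GRCm38.p6, read 5′ to 3′ on the gene's strand.

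The nuclear body RNAs were higher in Th1 cells. Malat1, an abundant RNA of splicing speckles, read -0.19, -0.85 and -0.62 in naive, 1.37, 1.18 and 1.19 in Th1 and 0.10, -0.30 and -1.23 in Th17 arrays. The Th1 arrays lay above all others, and naive and Th17 arrays overlapped. It rose by 1.80 ± 0.32 (SE) in Th1 over naive cells (adjusted p = 0.0017, limma) and differed by 0.07 in Th17 cells (adjusted p = 0.86). The difference of Th17 from Th1 cells was -1.73 ± 0.32 (adjusted p = 0.0082, limma). Neat1, the scaffold of paraspeckles, read -0.08, 0.10 and 0.22 in naive, 1.67, 2.01 and 1.88 in Th1 and 0.68, 0.93 and -0.12 in Th17 arrays. It rose by 1.77 in Th1 cells (adjusted p = 0.00053, limma), differed by 0.42 in Th17 cells (adjusted p = 0.19) and was lower in Th17 than in Th1 cells (-1.36, adjusted p = 0.0083). Of 5 paraspeckle proteins, 4 rose in Th1 and 3 in Th17 cells, beside 23.6% and 24.3% of all accessions called higher. Sfpq rose by 1.09 and 1.14 and Nono by 0.31 and 0.35. Between Th17 and Th1 cells Sfpq differed by 0.05 (adjusted p = 0.80, limma) and Rbm14, the one with the smallest p, by -0.37 (adjusted p = 0.15).

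By Pearson r over the 9 levels, as a description of these arrays, the noncoding RNAs most like Malat1 were D4Ertd617e (0.933), Gm9895 (0.930) and Neat1 (0.926). Those most like Neat1 were Gdap10 (0.945), 4933407L21Rik (0.938) and Slc2a4rg-ps (0.933). The arrays of a group share that group's level, which alone gives high values.

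Of the 3 measured RNAs of X inactivation, Xist rose in both effector populations, Jpx was near background and Ftx depended on the probe. Xist, which coats the inactive X chromosome, has 2 accessions on the array. NR_001570 read -1.37, -1.65 and -1.66 in naive, -0.03, 0.07 and 0.30 in Th1 and -0.23, -0.08 and -0.87 in Th17 arrays. The naive arrays lay below all others. It rose by 1.67 ± 0.21 (SE; adjusted p = 0.00028, limma) and 1.17 ± 0.21 (adjusted p = 0.0018), and NR_001463 rose by 1.88 and 1.30. Jpx, an activator of Xist, was not well above background on any naive array, at -6.02, -6.72 and -7.80, and near background in the others, with 2 of 3 arrays above it in each effector group. Its change is therefore given as at least 1.12-fold in Th1 and 1.17-fold in Th17 cells (adjusted p = 0.0038 and 0.0031, limma), and both calls were lost with the slide as a block (adjusted p = 0.058 and 0.13). Both were also lost under normexp without spots of high local background, at 0.07 and 0.24 (adjusted p = 0.60 and 0.093, limma). Ftx, which also lies in the X inactivation centre, differed by 0.50 and 0.33 and was not called, whereas its second, dimmer probe was called higher, by 1.07 and 0.65. The RNAs most like Xist by Pearson r over 9 arrays were F730043M19Rik (0.985), Gm9920 (0.982) and 3110099E03Rik (0.977).

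Among the imprinted noncoding RNAs, 5 of 7 accessions rose in Th1 cells and 3 in Th17 cells, beside 23.6% and 24.3% of all accessions. Meg3 is the maternally expressed RNA of the Dlk1-Meg3 domain. Its accession NR_027652 read -6.83, -6.64 and -6.22 in naive arrays, all not well above background, then -2.21, -1.97 and -2.16 in Th1 and -6.73, -6.31 and -4.63 in Th17 arrays, of which only replicate 3 was above background. The Th1 arrays stood apart from all others. Th1 cells had at least 8.33-fold more than naive cells (adjusted p = 0.00012, limma). Between Th17 and naive cells the fitted difference was 0.67 (adjusted p = 0.26), and between Th17 and Th1 cells -3.78 ± 0.47 (SE; adjusted p = 0.0012). Without Th17 replicate 3 the call between Th17 and Th1 cells was kept. A second accession, NR_003633, was dim, lacked 1 naive array and was called in no comparison. A lower bound here compares the brighter group's mean with the lowest signal that counted as well above background.

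Mirg, the microRNA host downstream of Meg3, followed the same order. Naive replicate 1 was an outlier spot and was left out, and the other naive arrays read -4.66 and -6.14, not above background. Th1 arrays read -2.65, -2.12 and -2.52 and Th17 arrays -5.10, -4.88 and -4.95. For Mirg, Th1 exceeded naive cells at least 6.33-fold (adjusted p = 0.00061, limma), and it was lower in Th17 than in Th1 cells (-2.55, adjusted p = 0.0033). Within slide 1 the Th1 difference was 2.76 with adjusted p = 0.071, and in the authors' deposited values neither call was kept (adjusted p = 0.39 and 0.19, limma). Dlk1, a coding gene of the domain expressed from the other parental allele, fell by 1.15 in Th1 and by 1.12 in Th17 cells.

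Kcnq1ot1, the antisense RNA that silences the Kcnq1 domain, read 0.48, 0.21 and 0.17 in naive, 1.90, 2.31 and 2.0 in Th1 and 2.01, 2.18 and 2.09 in Th17 arrays. Its naive arrays did not overlap the others, and it rose by 1.78 ± 0.14 and 1.81 ± 0.14 (SE; adjusted p = 2.1e-05 and 1.8e-05, limma). A second probe rose by 1.94 and 1.65. Peg13, an imprinted RNA within Trappc9, rose by 1.48 and 1.07, and Trappc9 itself was not called (0.58 and 0.63). Igf2os, antisense to Igf2, was near background, with 0, 1 and 2 arrays above it in naive, Th1 and Th17 cells. Both comparisons with naive cells were called (adjusted p = 0.0099 and 0.0023, limma), with a bound of at least 1.06-fold higher in Th17 cells and none in Th1 cells, and both were lost with the slide as a block (adjusted p = 0.18 and 0.22). Under normexp without spots of high local background Igf2os came to 0.03 and 0.21, and neither call was kept (adjusted p = 0.84 and 0.16, limma). Igf2, which it overlaps, rose by 2.37 in Th1 and by 0.82 in Th17 cells and was lower in Th17 than in Th1 cells (-1.55, adjusted p = 0.0027, limma). Strand cannot be read from the files for such overlapping pairs. Airn, antisense to Igf2r, was not called (0.34 and -0.03), while Igf2r fell by 1.83 and 2.04.

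**Figure D3:**
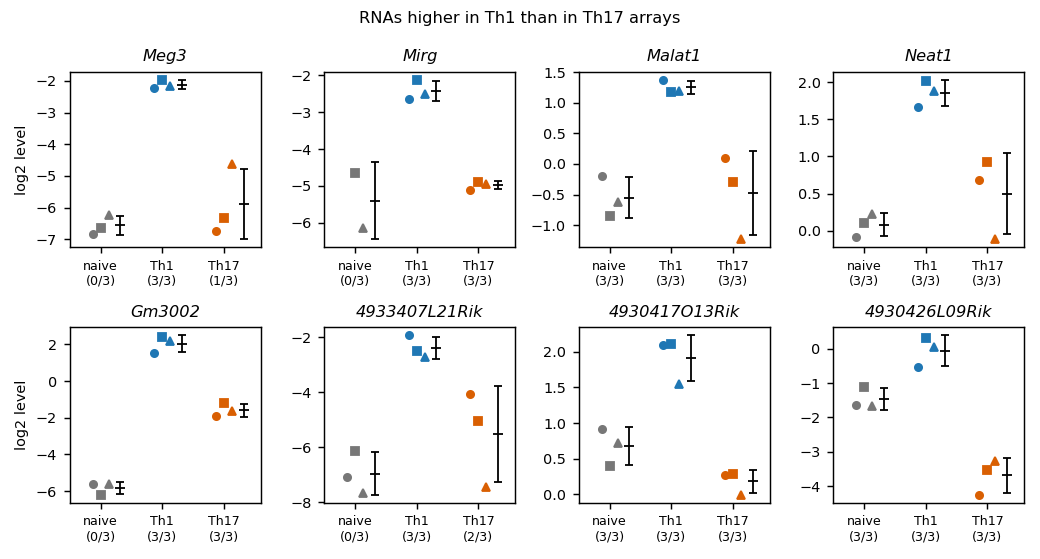
Levels (log2, relative to the array's 75th percentile) of 8 RNAs on each array by group, with mean ± SD beside the points; the numbers under each group give how many of its 3 arrays were well above background. Each panel has its own axis, and in each the 3 Th1 arrays lie above the 3 Th17 arrays. Mirg has 2 naive points because 1 spot was an outlier.

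RefSeq's table has 2 start sites for Meg3. The promoter of the first, from 250 bases before to 50 bases after the start, is shown because Meg3 differed between Th1 and Th17 cells and all cells had received PMA and ionomycin, which act through AP-1, CREB and NFAT. Capitals mark a match to the cyclic AMP response element TGACGTCA and to the NFAT core GGAAAA (on either strand, so TTTTCC as well).
Meg3 (chr12:109540746-109541045, plus strand, GRCm38.p6): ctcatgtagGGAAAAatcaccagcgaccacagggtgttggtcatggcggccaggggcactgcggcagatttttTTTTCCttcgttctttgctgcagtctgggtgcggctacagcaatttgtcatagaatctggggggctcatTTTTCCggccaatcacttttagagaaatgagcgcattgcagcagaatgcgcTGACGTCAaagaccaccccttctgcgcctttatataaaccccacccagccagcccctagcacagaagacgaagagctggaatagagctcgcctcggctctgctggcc
The promoter of the second start site (chr12:109545148-109545447) holds no match to any motif searched. The response element occurs in 1.79% of all 32851 promoters of this length in the table and the NFAT core in 23.4%. Of 42 named RNAs with an entry, Meg3 was the 1 with TGACGTCA, 3 (Morrbid, Mirt1 and 3300005D01Rik) held the AP-1 motif TGANTCA, 12 held an NFAT core and 1 (Snhg1) held the E2F motif TTTGGCGC, which occurs in 0.514% of all promoters. Of the 3 with TGANTCA, Morrbid rose in both effector populations, and Mirt1 and 3300005D01Rik fell in both. Whether any motif goes with a direction was not tested. Mirt1 fell by 0.99 and 1.5, and 3300005D01Rik by 1.82 and 2.11. The AP-1 motif occurs in 7.81% of all promoters. These are matches of letters and say nothing of binding in these cells.

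Morrbid, a long noncoding RNA of myeloid and T cells known to repress the neighbouring proapoptotic gene Bcl2l11 (Bim), rose in both effector populations. It read -4.75, -6.09 and -4.94 in naive, -0.28, -0.91 and -0.46 in Th1 and -0.23, -0.42 and 0.14 in Th17 arrays. The naive arrays lay far below all others, and Th1 and Th17 arrays overlapped. It rose by 4.70 ± 0.35 (SE; adjusted p = 1.7e-05, limma) in Th1 and by 5.09 ± 0.35 (adjusted p = 1.1e-05) in Th17 cells. Between Th17 and Th1 cells the difference was 0.38 (adjusted p = 0.50). Bcl2l11 fell by 1.81 ± 0.10 and 1.53 ± 0.10 (SE; adjusted p = 3.6e-06 and 8.2e-06, limma). Its promoter holds the AP-1 motif, in capitals, at its annotated start.
Morrbid (chr2:128429302-128429601, minus strand, GRCm38.p6): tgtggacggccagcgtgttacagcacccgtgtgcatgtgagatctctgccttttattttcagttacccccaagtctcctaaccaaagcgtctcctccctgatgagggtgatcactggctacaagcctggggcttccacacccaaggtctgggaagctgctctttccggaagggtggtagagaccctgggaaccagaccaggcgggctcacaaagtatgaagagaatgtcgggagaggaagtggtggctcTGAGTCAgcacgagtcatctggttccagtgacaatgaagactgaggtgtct

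Of the 18 names on the list of noncoding RNAs of T helper and immune genes, 9 were measured through 10 accessions. Of these accessions, 5 rose in Th1 and 3 in Th17 cells, beside 23.6% and 24.3% of all accessions called higher. The measured RNAs include Malat1, Neat1 and Morrbid, given above. Dleu2, the host of miR-16-5p, rose by 0.66 and 0.45. Tug1 depended on the accession: NR_002321 rose by 0.94 in each comparison, whereas NR_002322 was not called (-0.15 and 0.13), and the calls of the first were lost with the slide as a block (0.68 and 0.67, adjusted p = 0.075 and 0.18). Norad, a decoy of Pumilio proteins, was not called on its brightest probe (-0.18 and 0.05), and another of its 4 probes was called higher, by 0.25 and 0.28. Pvt1, the neighbour of Myc, was not called (-0.11 and -0.31). Mir17hg, the host of the miR-17 to miR-92a cluster, was not called either (0.54 and -0.13).

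Of the 4 measured microRNA hosts, Mir22hg rose by 1.14 and 1.28 and Dleu2 rose as above. Mir22hg read -2.29, -2.06 and -1.32 in naive, -0.83, -0.64 and -0.78 in Th1 and -0.71, -0.41 and -0.71 in Th17 arrays, with the naive arrays below all others. Both of its calls were lost with the slide as a block (1.06 and 1.21, adjusted p = 0.059 and 0.11, limma). The Th1 call of Mirt1 was lost without any 1 of 3 arrays (adjusted p = 0.054 to 0.061) and its Th17 call with the slide as a block (-1.46, adjusted p = 0.056, limma). Of the 9 proteins that make or use microRNAs, 1 rose and 3 fell in Th1 cells, and 1 rose and 2 fell in Th17 cells, under the share of all accessions called. Drosha, the nuclear nuclease that cuts hairpins, rose by 1.29 and 1.03. Ago1, which binds mature microRNAs, fell by 1.33 and 1.21, and Xpo5, the exporter of hairpins, fell by 0.62 and 0.38.

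Of the listed small structural RNAs 4 were measured, and 1 was called against naive cells. Rnu12, the U12 RNA of the minor spliceosome, read 4.99, 5.23 and 5.28 in naive, 4.38, 4.25 and 4.21 in Th1 and 4.24, 4.62 and 4.27 in Th17 arrays. It fell by 0.89 and 0.79, and the Th17 call was lost with the slide as a block (-0.59, adjusted p = 0.14, limma). Rmrp, the RNA of RNase MRP that is also known to act with the Th17 factor RORγt, was not called: its naive levels were 1.26, 0.71 and 0.64, its Th1 levels 0.50, 0.09 and 0.08, and its Th17 levels 0.90, 0.01 and 1.03. Terc, the telomerase RNA, differed by 0.07 and 0.44 and Snora74a by -0.72 and 0.00, with no call. Of 10 RNase P and MRP proteins, 5 fell in Th1 cells, and in Th17 cells 4 fell and 2 rose. Rpp25 fell by 2.0 and 2.18. Of 5 proteins of the 7SK particle 2 fell in Th1 and 3 in Th17 cells, and Ccnt1 fell by 0.75 and 0.86. Of 10 nonsense-mediated decay proteins, 3 fell in Th1 cells, and in Th17 cells 3 fell and 1 rose. Over all accessions, 30.3% fell in Th1 and 29.9% in Th17 cells.

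Some of the RNAs named for their size of change overlap or neighbour a coding gene, whose values are given beside them. Gm16894, which overlaps Il1r2, the decoy receptor of interleukin 1, read -6.36, -6.94 and -7.54 in naive arrays, none well above background, then -3.85, -2.56 and -2.88 in Th1 and -1.92, -1.58 and -1.16 in Th17 arrays. The 3 groups did not overlap. It was at least 4.22-fold higher in Th1 and at least 12.3-fold higher in Th17 than in naive cells (adjusted p = 1e-04 and 1.5e-05, limma). The difference of 1.54 between Th17 and Th1 cells (adjusted p = 0.034) was lost without any 1 of 5 arrays (adjusted p = 0.053 to 0.096) and came to 0.97 with the slide as a block (adjusted p = 0.16, limma). Il1r2 rose by 5.93 in Th1 and by 8.75 in Th17 cells and was higher in Th17 than in Th1 cells by 2.82.

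Gm10684 overlaps Jaml, an adhesion receptor gene, and had the same order of groups. Its Th17 levels were -2.42, -2.99 and -3.59 and its Th1 levels -4.40, -4.86 and -5.31, with the naive arrays from -7.67 to -7.03 and not above background. It was at least 4.51-fold higher in Th17 than in naive cells and higher in Th17 than in Th1 cells by 1.85 (adjusted p = 0.0078, limma). Jaml rose by 1.60 and 3.91. 4930431P03Rik, the neighbour of Ptger2, a prostaglandin E2 receptor gene, read -3.48, -4.18 and -2.77 in naive, 1.18, 2.04 and 1.81 in Th1 and 0.23, 1.02 and 0.17 in Th17 arrays. It rose by 5.15 and 3.95, and Ptger2 rose by 4.22 and 4.43. F730043M19Rik, which overlaps Atxn7l1, rose by 4.36 and 3.24, and Atxn7l1 rose by 3.90 and 3.26.

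Lockd, the RNA downstream of the cell cycle inhibitor gene Cdkn1b, rose without its neighbour. It read -5.47, -6.16 and -6.01 in naive arrays, not above background, then -2.35, -2.75 and -3.12 in Th1 and -1.55, -1.89 and -2.03 in Th17 arrays. The groups did not overlap. It was at least 5.39-fold higher in Th1 and at least 10.2-fold higher in Th17 cells (adjusted p = 2.3e-05 and 5.9e-06, limma), while Cdkn1b fell by 0.41 in Th1 cells and differed by -0.02 in Th17 cells (adjusted p = 0.90). The difference of Lockd between Th17 and Th1 cells (0.92, adjusted p = 0.039) was lost without any 1 of 6 arrays (adjusted p = 0.055 to 0.11).

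Some RNAs fell with a neighbour. 4930426L09Rik, next to the lipid kinase gene Pip4k2a, read -1.63, -1.10 and -1.67 in naive, -0.54, 0.33 and 0.06 in Th1 and -4.25, -3.53 and -3.27 in Th17 arrays. It rose by 1.42 in Th1 cells, a call lost with the slide as a block (0.93, adjusted p = 0.073), and fell by 2.22 in Th17 cells. Between Th17 and Th1 cells it differed by -3.63 ± 0.31 (SE; adjusted p = 0.00016, limma). Pip4k2a differed by 0.05 in Th1 cells (adjusted p = 0.79) and fell by 1.93 in Th17 cells. E130112N10Rik overlaps Cd27, a costimulatory receptor gene of naive and memory cells, and fell by 1.23 in Th17 cells, where Cd27 fell by 3.74. In Th1 cells it differed by 0.16 (adjusted p = 0.51), and Cd27 fell by 1.74. 4930417O13Rik, another neighbour of Cd27, rose by 1.24 in Th1 cells and lay lower in Th17 than in Th1 cells (-1.73, adjusted p = 0.0007). AW011738, next to the interferon-induced Isg15, fell by 1.5 in Th1 cells and was at least 3.78-fold lower in Th17 cells, and Isg15 fell by 2.87 and 3.15.

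Others moved against a neighbour or beside it. 2610035D17Rik, in the region of Sox9 and Slc39a11, read -0.57, -0.24 and -0.04 in naive, -2.76, -2.37 and -2.68 in Th1 and -3.08, -3.73 and -3.85 in Th17 arrays and fell by 2.32 and 3.27. Slc39a11, a zinc transporter gene, rose by 1.59 and 2.06. 4732491K20Rik was above background on no Th1 array. It was at least 1.17-fold lower in Th1 than in naive cells, a call lost with the slide as a block (adjusted p = 0.17, limma), and at least 1.65-fold higher in Th17 than in Th1 cells. Its neighbour Map3k4 fell by 0.84 and was higher by 1.12 in the same comparisons. 4933407L21Rik, beside Itm2c, rose at least 6.89-fold from naive to Th1 cells (adjusted p = 0.0015, limma). Its Th17 levels of -4.06, -5.04 and -7.44 spread widely, and its difference between Th17 and Th1 cells (-3.13, adjusted p = 0.030) was lost without any 1 of 4 arrays (adjusted p = 0.054 to 0.089) and came to -1.94 with the slide as a block (adjusted p = 0.070, limma). Itm2c rose by 2.08 and 1.07. Further RNAs with large rises were 5830428M24Rik, by 3.77 and 3.07, and A230072C01Rik, at least 4.65-fold and 2.25-fold higher in Th1 and Th17 than in naive cells. Dbhos was at least 2.84-fold higher in Th17 than in naive cells and at least 2.67-fold higher than in Th1 cells. It was above background in Th17 arrays alone and passed the filter only through them.

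Over all long noncoding RNAs whose nearest coding gene was measured (235 pairs), 115 RNAs were called in Th1 against naive cells. In 55 of these pairs the coding gene was called too, beside 53.9% of all accessions, 33 in the same direction and 22 in the opposite one. In Th17 against naive cells these counts were 113, 68, 38 and 30, beside 54.2% of all accessions called, and between Th17 and Th1 cells 31, 6, 6 and 0, beside 15.8%. Beside the coding gene of the Th2 factor Gata3, chosen here after its values were seen, lie 2 overlapping RNAs that differed. 9230102O04Rik read -4.56, -4.59 and -4.78 in naive, -2.42, -1.81 and -2.44 in Th1 and -2.66, -2.33 and -2.57 in Th17 arrays and rose by 2.42 and 2.12. 4930412O13Rik fell by 0.36 and 0.97, and Gata3 was not called (0.52 and 0.18).

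**Figure D4:**
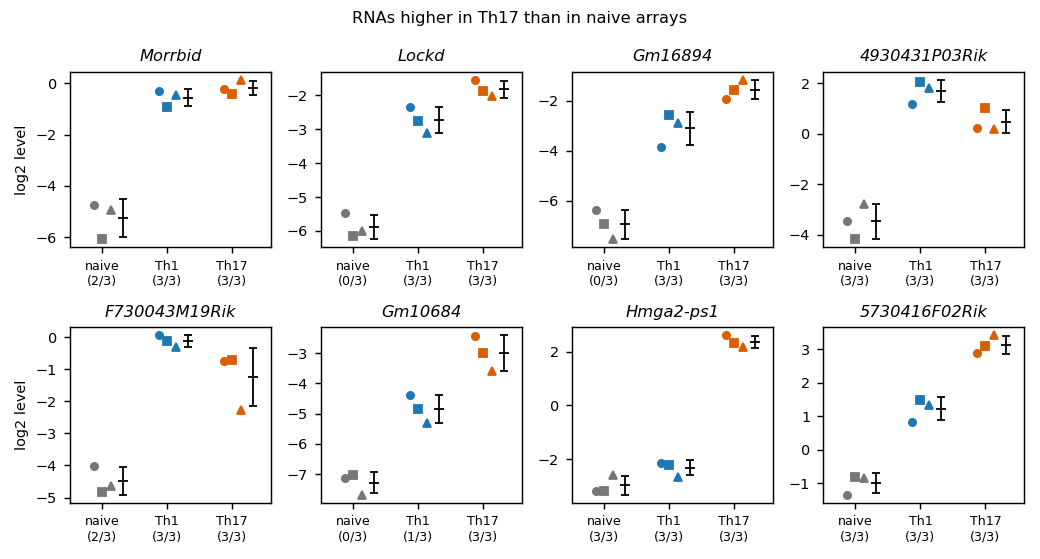
Levels (log2, relative to the array's 75th percentile) of 8 RNAs that were higher in Th17 than in naive cells, on each array, with mean ± SD beside the points and the number of arrays above background under each group. Each panel has its own axis. Hmga2-ps1 is high in Th17 arrays and low in naive and Th1 arrays, which overlap. The other 7 are also higher in Th1 than in naive arrays.

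**Figure D5:**
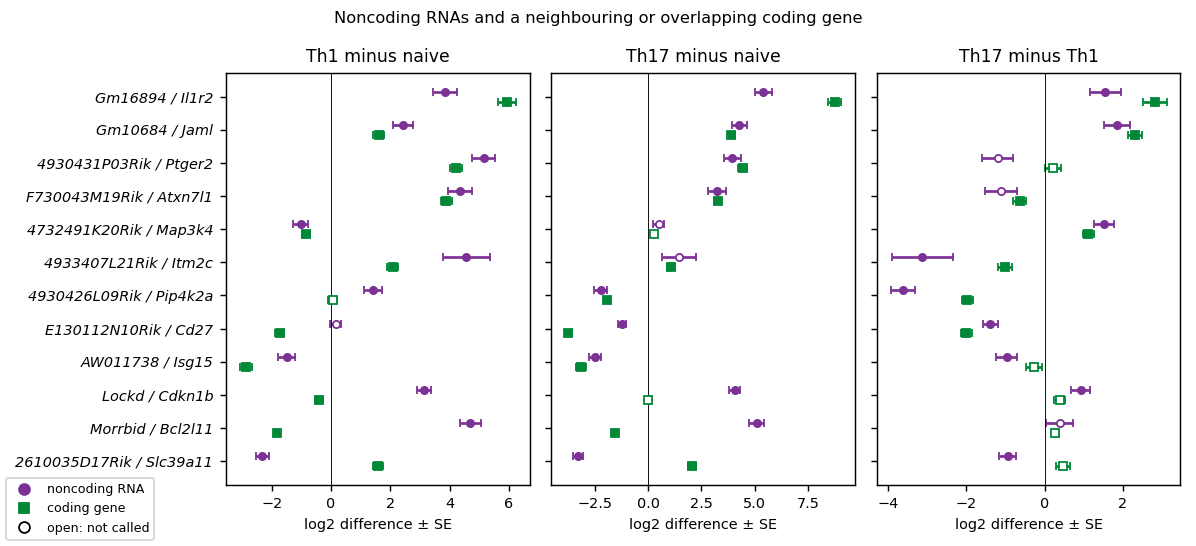
Difference ± SE (log2) of 12 noncoding RNAs (circles) and a neighbouring or overlapping coding gene (squares) in each comparison, filled where called. Gm16894 and Il1r2 lie on the same side of 0 in all 3 comparisons, and Morrbid and Bcl2l11 and 2610035D17Rik and Slc39a11 lie on opposite sides against naive cells.

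Transcribed pseudogenes gave the largest rise and the largest fall of a noncoding RNA in Th1 against naive cells, Gm3002 and BC021767. Gm3002, of a gene family with many near-identical copies, read -5.62, -6.19 and -5.62 in naive arrays, not above background, then 1.51, 2.40 and 2.19 in Th1 and -1.90, -1.20 and -1.65 in Th17 arrays. The 3 groups did not overlap. It was at least 147-fold higher in Th1 and at least 12-fold higher in Th17 than in naive cells (adjusted p = 4.3e-07 and 9.3e-06, limma) and lower in Th17 than in Th1 cells by -3.61 ± 0.28 (SE; adjusted p = 0.00011). A second probe gave -3.43 for the last comparison. Hmga2-ps1, a copy of the chromatin protein gene Hmga2, read -3.17, -3.19 and -2.58 in naive, -2.13, -2.20 and -2.65 in Th1 and 2.61, 2.33 and 2.16 in Th17 arrays. It rose by 5.35 ± 0.21 (SE; adjusted p = 9.5e-07, limma) in Th17 over naive cells and was 4.69 ± 0.21 higher in Th17 than in Th1 cells (adjusted p = 9.7e-06), the largest rise of a noncoding RNA in that comparison. Hmga2-ps1 was also called higher in Th1 than in naive cells, by 0.65, although those arrays overlapped. That call was lost without any 1 of 4 arrays (adjusted p = 0.092 to 0.10, limma) and with the slide as a block (adjusted p = 0.066). 5730416F02Rik rose by 2.22 and 4.13 and was higher in Th17 than in Th1 cells by 1.91.

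BC021767 was at least 8.16-fold lower in Th1 and at least 10.4-fold lower in Th17 than in naive cells, with naive levels of -2.18, -1.76 and -2.23. It was above background in naive arrays alone and passed the filter only through them. Gm11346 fell by 2.35 and 2.92. Some pseudogenes moved with their parent gene and some did not. Tubb2a-ps2 fell by 2.70 and 2.95 beside Tubb2a, a beta-tubulin gene, which fell by 3.38 and 3.61, and Pdxk-ps fell by 1.79 and 2.16 beside the pyridoxal kinase gene Pdxk, which fell by 1.83 and 2.13. Tyms-ps rose by 1.82 and 2.01, whereas Tyms, the thymidylate synthase gene, differed by -0.23 in Th1 cells and fell by 0.50 in Th17 cells. Morf4l1-ps1 rose by 0.89 and 0.92 and Morf4l1 was not called (-0.35 and -0.18). Probe sequences were not used here, so whether a probe also reads the parent or another copy is uncertain. Among genes now listed as protein-coding, Speer1 rose by 1.12 in Th17 over naive cells, and the related pseudogene Speer5-ps1 was at least 1.55-fold higher there. Speer5-ps1 was above background in Th17 arrays alone and passed the filter only through them. The Th17 calls of Speer1 and Speer5-ps1 against naive cells were both lost with the slide as a block (adjusted p = 0.096 and 0.067, limma). Gm18852 rose by 1.67 in Th17 cells (adjusted p = 0.019, limma), a call lost without any 1 of 3 arrays (adjusted p = 0.056 to 0.063) and with the slide as a block (adjusted p = 0.16). Among accessions with no current symbol, NR_015553 was at least 4.70-fold lower in Th1 and fell by 2.38 in Th17 cells, and NR_028086 rose by 1.41 in Th1 cells and lay lower in Th17 than in Th1 cells (-1.70, adjusted p = 4e-05).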

How the data were processed

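RNA of 9 samples (3 naive, 3 Th1, 3 Th17) was measured on 1-colour Agilent mouse arrays. The deposited files hold each spot's processed signal, a linear intensity from which background was subtracted by Agilent Feature Extraction (version 10.7.3.1 per the file headers and 10.5 per the submitters' processing notes). A deposited table of the authors holds log2 values whose per-probe baseline is not stated; it served as an alternative. Controls and outlier spots were left out, log2 signals were shifted to the array's 75th percentile, with repeat spots averaged per probe. Probes well above background on at least 3 of 9 arrays were kept, 1 per accession. Symbols came from RefSeq (GRCm38.p6); the headers name mm9, so only the printed sequences carry coordinates. One limma fit (limma 3.58.1, R 4.3.3, the data.table package 1.17.8) held all 3 groups, with Benjamini-Hochberg adjustment, and the fit was tested on simulated data. Python 3.11.15, pandas 2.3.3 and numpy 2.4.6 made summaries. The number of arrays limits precision. The members and lists were chosen with earlier results of these data known. Named were, per comparison, the 10 largest rises and 10 largest falls among called RNAs with non-overlapping groups and all arrays of the higher group above background, every measured member of the 7 RNA lists, and up to 3 proteins per list by smallest p; others are neighbours or parents of these, and 9230102O04Rik, 4930412O13Rik, Tyms-ps and Morf4l1-ps1 were chosen after their values were seen. Alternatives were background correction, scaling, filter, probe choice, the authors' table, slide, replicate block, the groups in the fit and leaving out each array.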

Additional observations from a re-analysis of the deposited data

How the results depend on the processing

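The counts of called noncoding RNAs were within 1.5 times of the reported ones under every alternative except these. Normexp background correction gave 20 in Th1 against naive, 18 in Th17 against naive and 4 in Th17 against Th1 cells, with 2 and 1 snoRNA hosts lower against naive cells. On Th1 replicate 2, 6 spots had a local background over 100, up to 168530, beside a median of 37. With such spots left out, an alternative chosen after seeing the data, normexp gave 188, 179 and 47 calls and 8 and 11 hosts lower. The slide as a block gave 120 in Th17 against naive cells, slide 1 alone 139 in Th1 against naive cells, and slide 2 alone 26 and a fit of only the 2 groups 35 in Th17 against Th1 cells. Leaving out each array gave 185 to 253, 185 to 223 and 34 to 51 calls in the 3 comparisons, and 5 to 10 and 10 to 11 hosts lower in Th1 and Th17 cells. The smallest counts of Th17 against Th1 calls were those without Th1 replicate 2 (34) and Th1 replicate 3 (35).

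Of 125 calls of named RNAs, 27 kept direction and call under all alternatives that could be run. Signs reversed under plain normexp in Th17 against Th1 cells for Gm10863 (-0.41), Gm10684 (-0.013), Speer1 (-0.010), 4732491K20Rik (-0.39), Speer5-ps1 (-0.49) and Dbhos (-0.050), and in Th1 against naive cells for AW011738 (0.30), Gm10638 (0.17), 4732491K20Rik (0.63) and Gm10190 (0.36). With every probe kept, Norad was called at 0.25 in Th1 against naive cells. The slide block ended 8 of 51, 13 of 49 and 6 of 25 named calls in the 3 comparisons. The cause was not tested. The dim RNAs limit the depth of these statements, since a level near background has only a bound.

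The replicate number as a block gave 228, 226 and 61 calls and 7 and 10 hosts lower, and ended 2, 0 and 2 named calls. Whether the numbers pair the arrays cannot be told, as animals and sorts are not given. Deviations of arrays with the same number correlated at -0.0016 to 0.17, and those with different numbers at -0.20 to 0.063. The highest values were those of Th1 and Th17 arrays of replicate 2 (0.17) and of replicate 1 (0.17).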
